A study of Mus musculus with 15 samples.

Results

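Potassium channel genes were followed in mouse forebrain after hypoxic ischemia, an injury that combines low oxygen with low blood flow, with and without erythropoietin. They were taken as all genes whose symbol begins with Kcn, each represented by its brightest probe set that is annotated with 1 symbol. Of 84 such genes on the array, 61 reached a mean of 5.5 in log2(intensity + 16) over the 15 arrays, out of 13047 genes of any kind that met the same minimum. The 23 dimmer ones had means of 4.31 to 5.40. Kcne4 (5.53) lay just inside the minimum and Kcnj12 (5.40) just outside it. The rule used no difference between groups, though a mean over all arrays can reach the minimum through the groups where a gene is high.

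Potassium channels let potassium leave or enter cells and so set the resting potential of neurons and glia, end each action potential and pace firing. Voltage-gated families open when the membrane depolarises, and inward rectifiers and tandem-pore channels hold the resting potential. Most channels of the Slo and SK families, though not all, respond to calcium or sodium inside the cell. Auxiliary subunits change how fast the pores open and close and where in the cell they sit. During ischemia potassium builds up outside brain cells, and astrocytes clear it largely through an inward rectifier.

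The data were 15 Affymetrix whole-genome mouse arrays of total RNA from whole forebrain, 5 per group. EPO-HI samples (11 to 15) came from mice injected with erythropoietin, the hormone of red blood cell formation, into the peritoneum, 5 U per g, and then subjected to hypoxic ischemia. VEH-HI samples (6 to 10) received vehicle before the same injury, and VEH-Sham samples (1 to 5) received vehicle before sham surgery, with every injection 1 h ahead of the procedure. No group combined erythropoietin with sham surgery, and strain, genotype, age, sex and sampling time were not given in the sources used here. Nothing in the labels states that samples were separate animals, so p-values reflect only how far these samples spread, and that spread may be technical. All 10 listed neuron markers and all 8 astrocyte markers were measured, with mean intensities of 142 to 7075 over the neuron list.

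VEH-Sham 5 stood apart from its group. Array medians were 39.3 to 44.5 intensity units in the 10 arrays of injured samples and 39.97 in VEH-Sham 5, against 55.4 to 58.0 in VEH-Sham 1 to 4, a gap of 0.24 on the log2 scale that no label records. Among the potassium channel genes, VEH-Sham 5 lay outside the range of VEH-Sham 1 to 4 for 37 of 61, and among all genes for 7928 of 13047. Differences from VEH-Sham that passed the test are therefore given with the difference from VEH-Sham 5 alone, a description on 1 array without a test. Array set and injury cannot be told apart beyond that array. Whole forebrain RNA also cannot tell fewer cells of a type from less RNA per cell.

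The first comparison, VEH-HI against VEH-Sham, addresses the injury itself, without erythropoietin. More potassium channel genes fell than rose: 16 of 61 (26.2%) were lower at an adjusted p under 0.05 and 2 (3.28%) were higher, while of all 13047 genes 11.4% were lower and 12.0% were higher (limma, Benjamini-Hochberg adjustment over 27022 probe sets). The falls took in subunits of the fast inactivating A-type current (Kcna4, Kcnd1, Kcnd2 and Kcnip2), the sodium-activated channel gene Kcnt2, the beta subunit gene Kcnab1 and G protein-gated inward rectifiers (Kcnj3 and Kcnj6). The rises were the mechanosensitive tandem-pore channel gene Kcnk4 and Kcnu1. Among these called genes, Kcnk4, Kcnj6 and Kcnk16 reached the brightness minimum only through the groups where they were high. The median difference over the 61 genes was -0.28 on the log2 scale, with 52 below 0, against -0.02 over all genes.

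From VEH-Sham 5 alone, the same median was -0.10, with 40 of 61 below 0 and a median of 0.00 over all genes. Of the 16 genes called lower, 14 were also below VEH-Sham 5, beside 1219 of the 1491 called lower among all genes. For 2 of the 16, Kcna4 and Kcnd2, VEH-HI lay below VEH-Sham 5 by at least as much as below the whole group. VEH-Sham 5 lay below the other sham arrays for 12 of the 16 and within the VEH-HI range for 9, counts that were not made over all genes. With array set as a block in the fit, 0 of the 61 genes were called, and over all probe sets 3 were called, against 6174 without it. Without VEH-Sham 5, 22 of the 61 were lower and 2 higher, and of the 27022 probe sets 5807 were lower and 3802 higher, against 3513 and 2661 with it.

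**Figure D1:**
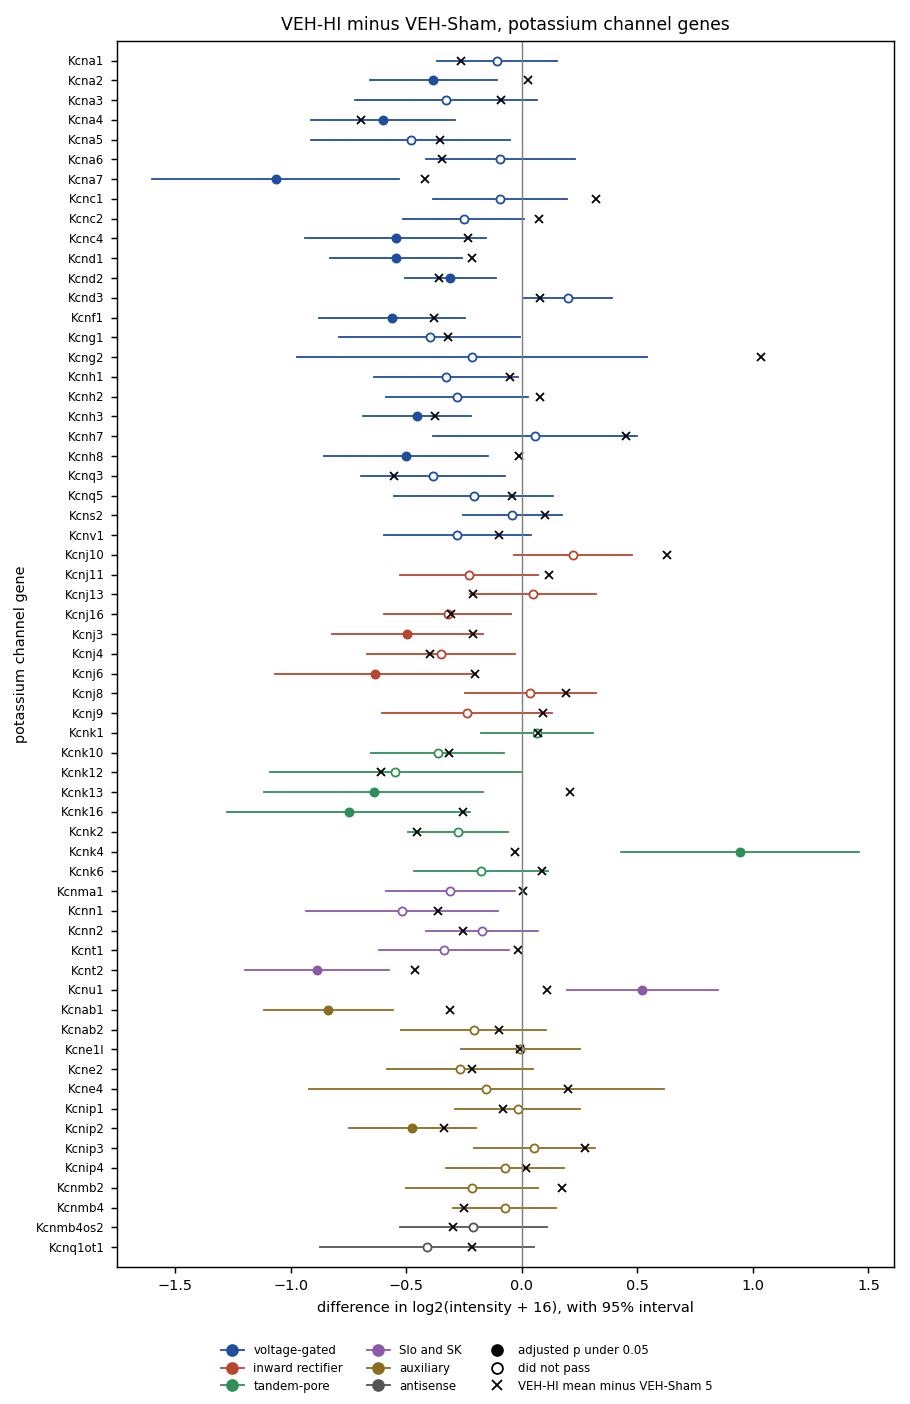
Difference VEH-HI minus VEH-Sham in log2(intensity + 16) for each of the 61 potassium channel genes, with its 95% interval, coloured by channel class; filled circles passed an adjusted p of 0.05 and crosses mark the difference of VEH-HI from VEH-Sham 5 alone. Points lie between -1.07 (Kcna7) and 0.94 (Kcnk4), 52 of them below 0, and among the called genes the crosses of Kcna2, Kcnk4 and Kcnk13 lie on the other side of 0 from their circles.

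Among the 25 voltage-gated genes, 9 fell and none rose, with a median of -0.33 (-0.10 from VEH-Sham 5). Kcna7 (probe set 1450490_at), a Shaker-type channel best known from muscle, read 5.99, 4.77, 6.27, 5.71 and 6.11 in EPO-HI, 5.52, 5.78, 5.56, 6.40 and 5.72 in VEH-HI, and 6.88, 7.17, 7.36 and 6.70 in VEH-Sham 1 to 4, with 6.22 in VEH-Sham 5. All 10 injured samples lay below VEH-Sham 1 to 4, and the value of VEH-Sham 5 fell within both injured groups. VEH-HI averaged 5.80 ± 0.36 and VEH-Sham 6.86 ± 0.44 (SD, n = 5 each), a difference of -1.07 (SE 0.26, limma adjusted p = 0.00723) and of -0.42 from VEH-Sham 5.

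Kcna4 (1422255_at) encodes the A-type member of the Shaker family. It read 6.79, 6.49, 6.82, 6.76 and 6.49 in EPO-HI, 6.73, 6.41, 6.71, 6.34 and 6.18 in VEH-HI and 7.20, 7.44, 6.80, 6.78 and 7.17 in VEH-Sham 1 to 5. Every VEH-HI sample lay below every VEH-Sham sample, VEH-Sham 5 included, while 2 EPO-HI samples reached just above the lowest sham value. VEH-HI stood at 0.659 of the VEH-Sham level (-0.60, SE 0.15, limma adjusted p = 0.00872), and the difference from VEH-Sham 5 was -0.70. A second Kcna4 probe set differed by 0.07 from VEH-Sham and by -0.22 from VEH-Sham 5, so the fall rests on the brighter one.

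The Kcnd genes encode pores of the A-type current in neuronal dendrites, and Kcnip proteins bind them and raise their density at the membrane. Kcnd1 fell (-0.54, SE 0.14, limma adjusted p = 0.00948, -0.22 from VEH-Sham 5) and so did Kcnd2 (-0.31, SE 0.09, limma adjusted p = 0.0241, -0.36 from VEH-Sham 5). Kcnd2 was the brightest Kcnd gene, at 9.91 ± 0.13 in EPO-HI, 9.81 ± 0.13 in VEH-HI and 10.12 ± 0.16 in VEH-Sham (SD, n = 5 each). All 10 injured samples were below VEH-Sham 5 for Kcnd2 and below VEH-Sham 1 to 4 for Kcnd1. Kcnd3 did not pass (0.20, limma adjusted p = 0.118), so the direction was not common to the family. The other Kcnd1 probe sets split in direction: they differed by 0.41 and -0.21 from VEH-Sham and neither passed, whereas both other Kcnd2 probe sets were below 0 (-0.26 and -0.13) without passing.

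Kcnf1 (1454768_at) encodes a silent subunit that forms no channel alone and modifies Kcnb pores. Its values were 6.88, 7.41, 7.62, 7.29 and 7.01 in EPO-HI, 6.97, 7.32, 7.44, 6.71 and 7.00 in VEH-HI and 7.89, 7.60, 7.59, 7.71 and 7.47 in VEH-Sham 1 to 5. All VEH-HI samples lay below all VEH-Sham samples, with a difference of -0.56 (SE 0.15, limma adjusted p = 0.013) and -0.38 from VEH-Sham 5. In the ether-a-go-go group, Kcnh3 fell (-0.46, SE 0.11, limma adjusted p = 0.0085, -0.38 from VEH-Sham 5). By its brightest probe set, Kcnh3 had all 10 injured arrays below VEH-Sham 5 and also below VEH-Sham 1 to 4. It was the only such gene of the 61, a count that was not made over all genes. Its other tested probe sets differed by -0.21 and -0.40 from VEH-Sham without passing. Against VEH-Sham 5 they stood higher, by 0.08 and 1.30.

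The other voltage-gated falls were in Kcnc4, Kcnh8 and Kcna2. Kcnc4 differed by -0.55 (limma adjusted p = 0.0419, -0.23 from VEH-Sham 5) and Kcnh8 by -0.50 (limma adjusted p = 0.0389, -0.01 from VEH-Sham 5). The axonal channel gene Kcna2 differed by -0.38 (limma adjusted p = 0.0419, 0.03 from VEH-Sham 5). These calls were each lost when 1 of several arrays was left out, with adjusted p of up to 0.122 for Kcna2, 0.116 for Kcnc4 and 0.106 for Kcnh8. Kcnd2 also lost its call without VEH-Sham 2, VEH-Sham 3 or VEH-HI 6 (adjusted p of up to 0.0665). Kcna4, Kcna7, Kcnd1, Kcnf1 and Kcnh3 kept theirs whichever array was left out.

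The remaining 16 voltage-gated genes did not pass. They were Kcna1, Kcna3, Kcna5 and Kcna6, Kcnc1 and Kcnc2, Kcnd3, the silent subunit genes Kcng1, Kcng2, Kcns2 and Kcnv1, the ether-a-go-go-related genes Kcnh1, Kcnh2 and Kcnh7, and the M-current genes Kcnq3 and Kcnq5. Their differences ran between -0.48 (Kcna5) and 0.20 (Kcnd3). Kcnq3, whose product helps hold neurons back from repetitive firing, read 7.93, 8.18, 8.37, 8.30 and 7.87 in EPO-HI, 7.48, 7.96, 8.38, 8.02 and 8.47 in VEH-HI and 8.42, 8.41, 8.47, 8.33 and 8.62 in VEH-Sham 1 to 5. VEH-Sham 5 was the highest of the 15, yet the groups overlapped and the difference of -0.39 did not pass (SE 0.15, limma adjusted p = 0.0659; -0.55 from VEH-Sham 5).

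Among the 6 Slo and SK genes, Kcnt2 fell and Kcnu1 rose. Kcnt2 (1459971_at), whose product is a potassium channel opened by sodium inside the cell, read 7.44, 7.79, 8.03, 7.70 and 7.22 in EPO-HI, 7.18, 7.29, 7.45, 7.56 and 7.14 in VEH-HI and 8.11, 8.35, 8.34, 8.48 and 7.78 in VEH-Sham 1 to 5. The VEH-HI and VEH-Sham samples did not overlap, VEH-Sham 5 included. VEH-HI averaged 7.32 ± 0.18 and VEH-Sham 8.21 ± 0.27 (SD, n = 5 each), 0.54 of the sham level (-0.89, SE 0.15, limma adjusted p = 0.000982), with -0.46 from VEH-Sham 5. Its paralog Kcnt1 differed by -0.34 and did not pass (limma adjusted p = 0.0768; -0.02 from VEH-Sham 5).

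Kcnu1 (1422838_at) encodes a Slo channel known chiefly from sperm. It read 7.31, 7.53, 7.25, 7.02 and 7.39 in EPO-HI, 6.84, 6.99, 7.33, 7.60 and 7.27 in VEH-HI and 6.51, 6.34, 6.86, 6.61 and 7.10 in VEH-Sham 1 to 5. VEH-Sham 5 lay inside the VEH-HI range, and VEH-Sham 3 was above the lowest VEH-HI sample. The difference was 0.52 (SE 0.16, limma adjusted p = 0.0234, 1.43-fold), but 0.11 from VEH-Sham 5, and the call was lost without VEH-Sham 1, 2 or 4 or without VEH-HI 9 (adjusted p of up to 0.068). Kcnma1, the large-conductance calcium-activated channel gene, and the SK genes Kcnn1 and Kcnn2 did not pass, with differences of -0.31, -0.52 and -0.17, and of 0.00, -0.36 and -0.26 from VEH-Sham 5. Of 3 other Kcnma1 probe sets, 2 were lower past the threshold (-0.48 and -0.54, limma adjusted p of 0.046 and 0.0115), at -0.50 and -0.28 from VEH-Sham 5.

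Of the 11 auxiliary subunit genes, Kcnab1 and Kcnip2 fell and none rose (median -0.15, -0.08 from VEH-Sham 5). Kcnab1 (1448468_a_at) encodes a beta subunit that plugs Shaker-type pores and makes their current inactivate quickly. It read 7.99, 8.39, 8.30, 8.20 and 8.20 in EPO-HI, 7.72, 8.10, 8.13, 8.19 and 8.17 in VEH-HI and 8.95, 8.94, 8.99, 9.25 and 8.37 in VEH-Sham 1 to 5. No VEH-HI sample reached any VEH-Sham sample, and VEH-Sham 5 lay nearer to the injured samples than to the other sham samples. VEH-HI averaged 8.06 ± 0.20 and VEH-Sham 8.90 ± 0.32 (SD, n = 5 each), 0.559 of the sham level (-0.84, SE 0.13, limma adjusted p = 0.00074), with -0.31 from VEH-Sham 5.

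The other tested Kcnab1 probe set fell too (-0.52, limma adjusted p = 0.00524; -0.35 from VEH-Sham 5). Kcnip2 differed by -0.47 (SE 0.13, limma adjusted p = 0.0158; -0.34 from VEH-Sham 5), and its call held whichever array was left out. The other 9 auxiliary genes did not pass and lay between -0.27 (Kcne2) and 0.05 (Kcnip3). They were Kcnab2, the single-span regulator genes Kcne1l, Kcne2 and Kcne4, the Kcnd-binding Kcnip1, Kcnip3 and Kcnip4, and the beta subunit genes of the calcium-activated channel, Kcnmb2 and Kcnmb4. Of these, Kcnip3, which also acts as a calcium-dependent repressor of transcription, had all 10 injured arrays above VEH-Sham 5 and Kcnmb4 all 10 below it.

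Kcna7, Kcnt2 and Kcnab1 stayed called lower under each array scaling tried, so the start regions of the Kcnt2 and Kcnab1 genes are shown, each 300 bases long and ending shortly after the listed start (RefSeq, GRCm38.p6, both on the plus strand). Kcnt2 is at chr1:140245468-140245767 and is rich in CG, with 12 CG pairs and 62.7% G or C. For Kcnab1, RefSeq lists 3 starts, and the one at chr3:65187853-65188152 holds the reverse complement of TATAAA, in capitals below, with 1 CG pair. These letters lie past the listed start and on the opposite strand, so they are a letter match and not a placed TATA box of that start. The other Kcnab1 starts, not shown, hold 7 and 3 CG pairs. The arrays do not tell which start was used.
Kcnt2: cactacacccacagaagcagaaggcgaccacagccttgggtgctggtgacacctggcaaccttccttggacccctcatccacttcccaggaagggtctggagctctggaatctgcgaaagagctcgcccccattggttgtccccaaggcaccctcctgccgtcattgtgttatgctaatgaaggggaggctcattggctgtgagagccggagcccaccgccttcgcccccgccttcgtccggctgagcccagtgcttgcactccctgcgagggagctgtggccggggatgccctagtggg
Kcnab1: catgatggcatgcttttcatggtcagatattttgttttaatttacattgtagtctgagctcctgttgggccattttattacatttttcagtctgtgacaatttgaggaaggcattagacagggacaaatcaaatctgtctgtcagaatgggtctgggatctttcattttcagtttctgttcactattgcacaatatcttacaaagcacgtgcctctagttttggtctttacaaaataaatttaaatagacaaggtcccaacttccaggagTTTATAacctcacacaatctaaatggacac

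Start regions were listed for 48 of the 61 genes, 71 in all. The TATA box letters TATAAA, searched on both strands and at any position, stood in 4 of them (5.63%), against 13.6% of all 32851 listed starts. Those 4 belonged to Kcnab1, Kcnj13, Kcnj16 and Kcnj9. The cAMP response element TGACGTCA, which reads the same on both strands and cannot overlap the TATA box letters, stood in 0 of the 71, against 1.79% of all starts. The median number of CG pairs was 9 in the 71 and 7 in all starts.

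Among the 9 inward rectifier genes, Kcnj3 and Kcnj6 fell and none rose (median -0.24, -0.20 from VEH-Sham 5). Their products are pores opened by G proteins when inhibitory receptors are active. Kcnj6 (1425044_at) read 5.05, 5.78, 6.01, 5.72 and 5.10 in EPO-HI, 5.33, 5.41, 5.61, 5.24 and 5.67 in VEH-HI and 5.97, 6.07, 6.49, 6.25 and 5.65 in VEH-Sham 1 to 5. It reached the brightness minimum only through VEH-Sham, since the injured arrays averaged 5.49. VEH-HI lay below VEH-Sham 1 to 4, and VEH-Sham 5 lay within VEH-HI (-0.63, SE 0.21, limma adjusted p = 0.0344; -0.20 from VEH-Sham 5).

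Kcnj3 differed by -0.50 (SE 0.16, limma adjusted p = 0.0289; -0.21 from VEH-Sham 5), and 1 of its 2 other probe sets fell as well (-0.60, limma adjusted p = 0.00994; -0.17 from VEH-Sham 5) while the other stood at 0.09. Both genes lost their call without any 1 of VEH-Sham 1 to 4, with adjusted p of up to 0.0982 for Kcnj6 and 0.0845 for Kcnj3. Kcnj9, the third G protein-gated gene measured, did not pass (-0.24; 0.09 from VEH-Sham 5). Nor did Kcnj4 (-0.35; -0.40), Kcnj8 (0.04; 0.19), Kcnj11 (-0.23; 0.12), Kcnj13 (0.05; -0.21) and Kcnj16 (-0.32; -0.31), although a dimmer Kcnj16 probe set fell by 0.95 on the log2 scale (limma adjusted p = 0.000619; -0.48 from VEH-Sham 5).

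Kcnj10 (1419601_at) encodes the astrocyte channel that takes up potassium around active neurons. It was the brightest Kcnj gene and read 8.45, 8.82, 8.55, 8.22 and 8.28 in EPO-HI, 8.43, 8.57, 8.44, 8.40 and 8.42 in VEH-HI and 8.43, 8.22, 8.46, 8.23 and 7.82 in VEH-Sham 1 to 5. All 10 injured samples lay above VEH-Sham 5 but not above VEH-Sham 1 to 4, and the difference of 0.22 did not pass (SE 0.12, limma adjusted p = 0.194; 0.63 from VEH-Sham 5). Of the 8 astrocyte markers 5 rose, against 12.0% of all genes, with a list median of 0.38 (0.12 from VEH-Sham 5). Their part in the Kcnj10 values was not tested. Kcnj4 (1451808_at), a strong inward rectifier of forebrain neurons, read 6.27, 6.70, 6.63, 6.42 and 6.49 in EPO-HI, 6.00, 6.54, 6.69, 6.32 and 6.40 in VEH-HI and 7.15, 6.76, 6.45, 6.57 and 6.79 in VEH-Sham 1 to 5. All injured samples lay below VEH-Sham 5 (-0.40), but they overlapped VEH-Sham 1 to 4.

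Of the 8 tandem-pore genes, Kcnk4 rose and Kcnk13 and Kcnk16 fell. Kcnk4 (1421419_at), a channel opened by membrane stretch and by fatty acids, read 5.63, 5.82, 5.54, 5.73 and 6.21 in EPO-HI, 6.25, 6.42, 5.38, 5.94 and 5.87 in VEH-HI and 4.67, 4.77, 4.85 and 4.85 in VEH-Sham 1 to 4, but 6.01 in VEH-Sham 5. All 10 injured samples were above VEH-Sham 1 to 4, and VEH-Sham 5 was among the injured samples. The difference was 0.94 (SE 0.25, limma adjusted p = 0.0117, 1.92-fold) from the whole sham group and -0.03 from VEH-Sham 5. The gene was dim, at 5.03 ± 0.55 in VEH-Sham, and reached the minimum through the other groups.

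Kcnk13 (1424125_at), a tandem-pore gene expressed by microglia, read 6.22, 5.93, 6.44, 5.67 and 6.63 in EPO-HI, 6.54, 6.46, 6.07, 6.03 and 5.73 in VEH-HI and 7.10, 6.69, 7.07, 7.22 and 5.96 in VEH-Sham 1 to 5. It fell against the sham group (-0.64, SE 0.23, limma adjusted p = 0.0474) but stood 0.21 above VEH-Sham 5. Of the 10 markers of microglia and macrophages, 7 rose and 1 fell in the same comparison, against 12.0% and 11.4% of all genes. Their list median was 0.79 (0.83 from VEH-Sham 5), and their part in the Kcnk13 values was not tested. Kcnk16 (1429913_at), known from pancreatic islets, read 5.36, 4.56, 5.55, 5.09 and 5.84 in EPO-HI, 5.19, 4.64, 5.75, 5.44 and 5.57 in VEH-HI and 6.35, 6.19, 5.81, 6.42 and 5.57 in VEH-Sham 1 to 5. It fell as well (-0.75, SE 0.25, limma adjusted p = 0.038; -0.26 from VEH-Sham 5), and reached the minimum only through VEH-Sham. Both falls were lost without any of several single arrays (adjusted p of up to 0.128 for Kcnk13 and 0.105 for Kcnk16).

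The 5 other tandem-pore genes, Kcnk1, Kcnk2, Kcnk6, Kcnk10 and Kcnk12, did not pass. Kcnk2 (1449158_at), a relative of Kcnk4 that responds to stretch and lipids, read 8.40, 8.82, 8.65, 8.75 and 8.43 in EPO-HI, 8.47, 8.58, 8.35, 8.45 and 8.46 in VEH-HI and 8.83, 8.53, 8.57, 8.82 and 8.92 in VEH-Sham 1 to 5. All injured samples lay below VEH-Sham 5, though not below VEH-Sham 1 to 4 (-0.28, SE 0.10, limma adjusted p = 0.0588; -0.46 from VEH-Sham 5). Kcnk12 (1441280_at), a close relative of Kcnk13, read 4.93, 6.07, 5.95, 5.62 and 5.76 in EPO-HI, 5.74, 6.15, 5.74, 5.11 and 5.93 in VEH-HI and 6.21, 6.87, 5.37, 6.62 and 6.34 in VEH-Sham 1 to 5. The groups overlapped through VEH-Sham 3, and the difference of -0.55 did not pass (limma adjusted p = 0.13; -0.61 from VEH-Sham 5).

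**Figure D2:**
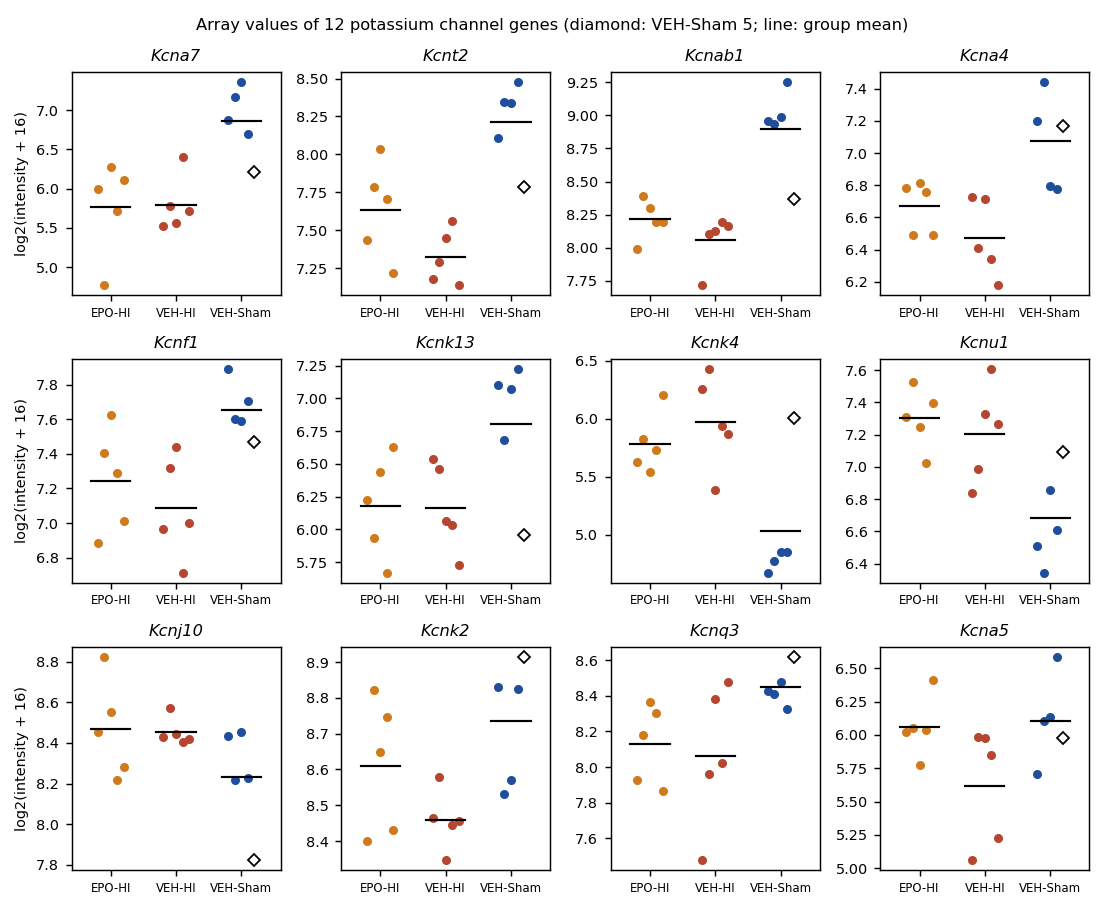
Values of 12 potassium channel genes in log2(intensity + 16) on every array, with EPO-HI, VEH-HI and VEH-Sham from left to right, a line at each group mean of 5 arrays and VEH-Sham 5 as an open diamond. In the Kcnk4 panel the diamond at 6.01 lies among the injured arrays, and in the Kcna4 panel at 7.17 it lies above all 10 of them.

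Ranges across arrays were also compared without a model. All 10 injured arrays were below VEH-Sham 1 to 4 for 9 of the 61 genes (14.8%, against 10.4% of all genes): Kcna7, Kcnab1, Kcnd1, Kcnh3, Kcnh8, Kcnip2, Kcnj3, Kcnk13 and Kcnt2. They were all above for 1 gene, Kcnk4 (1.64%, against 8.56% of all genes). Against VEH-Sham 5, all 10 were below for 11 genes (18.0%, against 8.20%): Kcna1, Kcna4, Kcna6, Kcnd2, Kcnh3, Kcnj4, Kcnj13, Kcnk2, Kcnk12, Kcnmb4 and Kcnq3. They were all above for Kcnc1, Kcnip3 and Kcnj10 (4.92%, against 9.66%). These shares describe the 61 genes and carry no test.

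The second comparison, EPO-HI against VEH-HI, asks whether erythropoietin given before the injury alters the response, and all 10 of its arrays lie in the same array set. None of the 61 genes passed, and 0.00% of all 13047 genes passed (limma, lowest adjusted p of 0.9997 among the 61). At an unadjusted p under 0.05 there were 2 of the 61 (3.28%), Kcna5 and Kcnt2, against 3.53% of all genes. For 0 of the 61 did the EPO-HI and VEH-HI arrays separate fully, against 0.736% of all genes. The median difference was 0.02 (-0.01 over all genes), with 36 genes above 0 and 25 below, and a range between -0.19 and 0.44.

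The 95% intervals were taken gene by gene, without adjustment for the number of genes. For all 61 genes the interval lay inside -1 to 1, and for 42 it lay inside -0.5 to 0.5. The median standard error was 0.15. By class the median difference was 0.05 over the voltage-gated genes (15 of 25 above 0), 0.01 over the inward rectifiers (5 of 9), 0.02 over the tandem-pore genes (5 of 8), 0.12 over the Slo and SK genes (5 of 6) and -0.01 over the auxiliary genes (5 of 11).

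**Figure D3:**
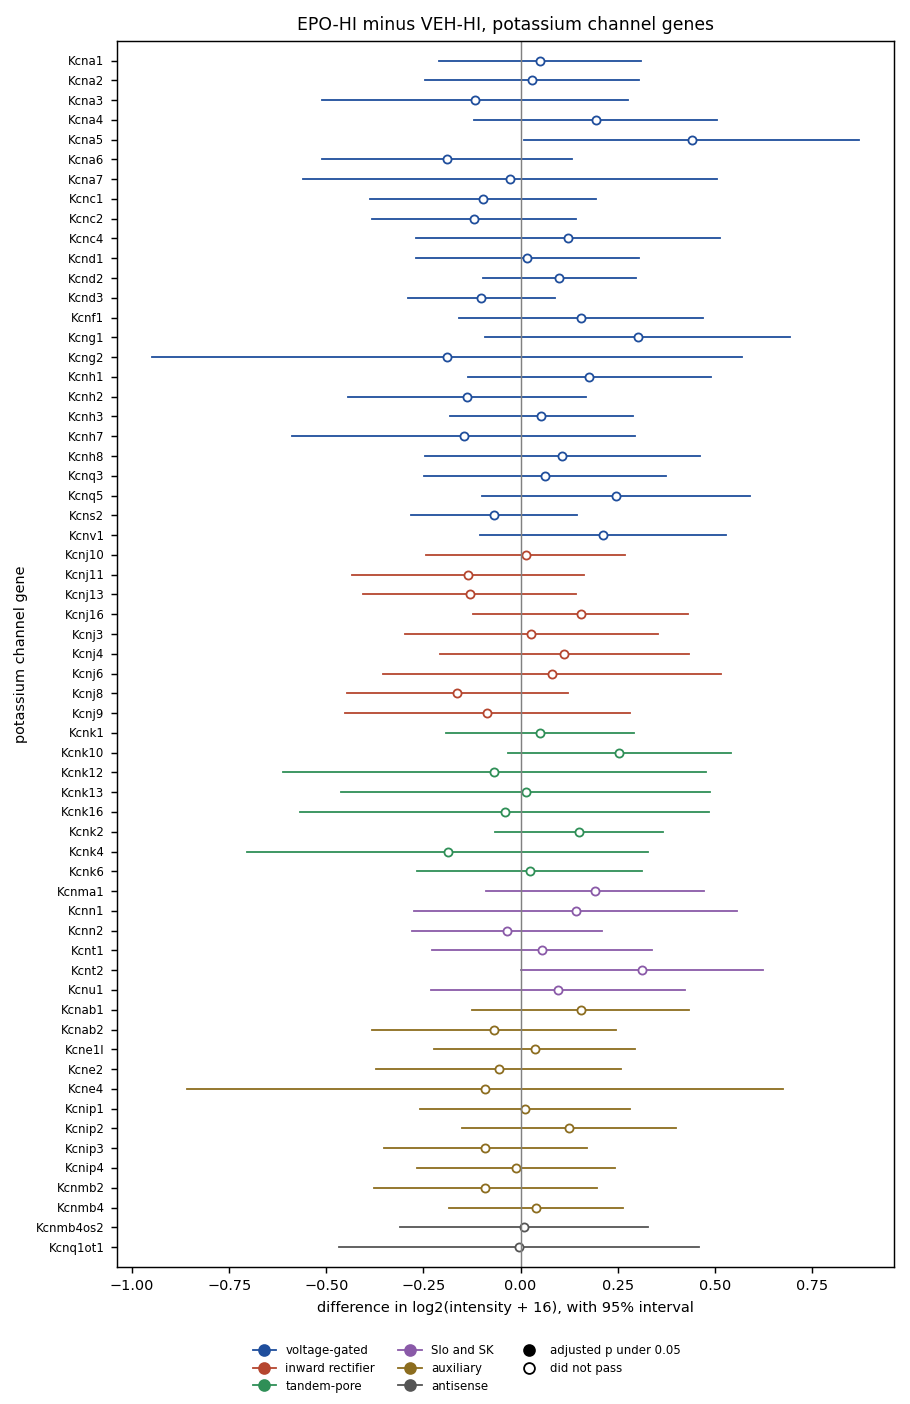
Difference EPO-HI minus VEH-HI in log2(intensity + 16) for each of the 61 potassium channel genes, with its 95% interval, coloured by channel class. All points are open, since none passed an adjusted p of 0.05, and they lie between -0.19 and 0.44 (Kcna5).

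Kcna5 (1417680_at), a Shaker-type delayed rectifier found in heart and in glia, had the smallest p. It read 6.02, 6.06, 5.78, 6.04 and 6.41 in EPO-HI and 5.06, 5.98, 5.98, 5.85 and 5.23 in VEH-HI, beside 5.71, 6.10, 6.13, 6.59 and 5.97 in VEH-Sham 1 to 5. VEH-HI 6 and VEH-HI 10 were low and the other samples overlapped, giving 0.44 (SE 0.21, 95% interval 0.01 to 0.87, limma adjusted p of 0.9997). Kcnt2 followed, at 0.31 (SE 0.15, 95% interval 0.00 to 0.63, limma adjusted p of 0.9997). For Kcnt2, 3 EPO-HI samples exceeded all VEH-HI samples, and the EPO-HI mean of 7.64 ± 0.32 lay between 7.32 ± 0.18 in VEH-HI and 8.21 ± 0.27 in VEH-Sham (SD, n = 5 each).

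Kcnk10, Kcng1 and Kcnq5 came next, and none passed. Kcnk10 (1438088_at), a stretch- and lipid-sensitive tandem-pore gene, read 7.34, 7.25, 7.48, 7.38 and 6.75 in EPO-HI and 7.10, 7.15, 6.60, 7.01 and 7.08 in VEH-HI (0.25, 95% interval -0.03 to 0.54). The silent subunit gene Kcng1 (1457052_at) read 6.46, 6.58, 6.97, 6.54 and 5.99 in EPO-HI and 5.95, 6.47, 6.52, 5.77 and 6.33 in VEH-HI (0.30, 95% interval -0.09 to 0.69). In both genes EPO-HI 15 was the lowest EPO-HI sample and fell inside the VEH-HI range. The M-current gene Kcnq5 (1457587_at) read 7.91, 8.15, 8.32, 8.10 and 7.62 in EPO-HI and 7.20, 7.72, 8.11, 7.73 and 8.10 in VEH-HI (0.25, 95% interval -0.10 to 0.59), with overlapping groups.

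The third comparison, EPO-HI against VEH-Sham, shares its VEH-Sham arrays with the first, so the values below stand side by side and are not independent. Of the 61 genes, 8 were lower (13.1%, against 9.37% of all genes) and 2 were higher (3.28%, against 8.94%). The genes called lower were Kcna7 at -1.09 (limma adjusted p = 0.00862; VEH-HI -1.07), Kcnk16 at -0.79 (limma adjusted p = 0.0356; VEH-HI -0.75), Kcnab1 at -0.68 (limma adjusted p = 0.00382; VEH-HI -0.84), Kcnt2 at -0.58 (limma adjusted p = 0.0143; VEH-HI -0.89), Kcnd1 at -0.53 (limma adjusted p = 0.0145; VEH-HI -0.54), Kcnj3 at -0.47 (limma adjusted p = 0.0434; VEH-HI -0.50), Kcnh3 at -0.40 (limma adjusted p = 0.0202; VEH-HI -0.46) and Kcnc2. From VEH-Sham 5, EPO-HI stood at -0.45 for Kcna7, -0.30 for Kcnk16, -0.16 for Kcnab1, -0.15 for Kcnt2, -0.20 for Kcnd1, -0.19 for Kcnj3 and -0.32 for Kcnh3.

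Kcnc2, which encodes a fast delayed rectifier of fast-firing interneurons, was the only one of the 8 not called in VEH-HI. It read 7.29 ± 0.12 in EPO-HI, 7.41 ± 0.19 in VEH-HI and 7.67 ± 0.25 in VEH-Sham (SD, n = 5 each), at -0.37 in EPO-HI (limma adjusted p = 0.0457; -0.04 from VEH-Sham 5) and -0.25 in VEH-HI (limma adjusted p = 0.15). The test between the 2 injured groups did not call this gene (-0.12, 95% interval -0.38 to 0.14, limma adjusted p of 0.9997). The 2 genes called higher were Kcnk4 at 0.76 (limma adjusted p = 0.0398; VEH-HI 0.94) and Kcnu1 at 0.62 (limma adjusted p = 0.0129; VEH-HI 0.52), at -0.22 and 0.21 from VEH-Sham 5.

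Of the 16 genes lower in VEH-HI, 9 did not pass in EPO-HI, but the test of EPO-HI against VEH-HI called none of them different. Kcna4 stood at -0.41 in EPO-HI (limma adjusted p = 0.0607) and Kcnf1 at -0.41 (limma adjusted p = 0.0635), and the other 7 were Kcna2, Kcnc4, Kcnd2, Kcnh8, Kcnip2, Kcnj6 and Kcnk13. The count of 8 became 4 without VEH-Sham 4, 5 without VEH-Sham 1, 2 or 3 or EPO-HI 11, and 18 without VEH-Sham 5. The 2 genes called higher became 1 without any one of VEH-Sham 1 to 4 or of EPO-HI 11, 12, 14 and 15.

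**Figure D4:**
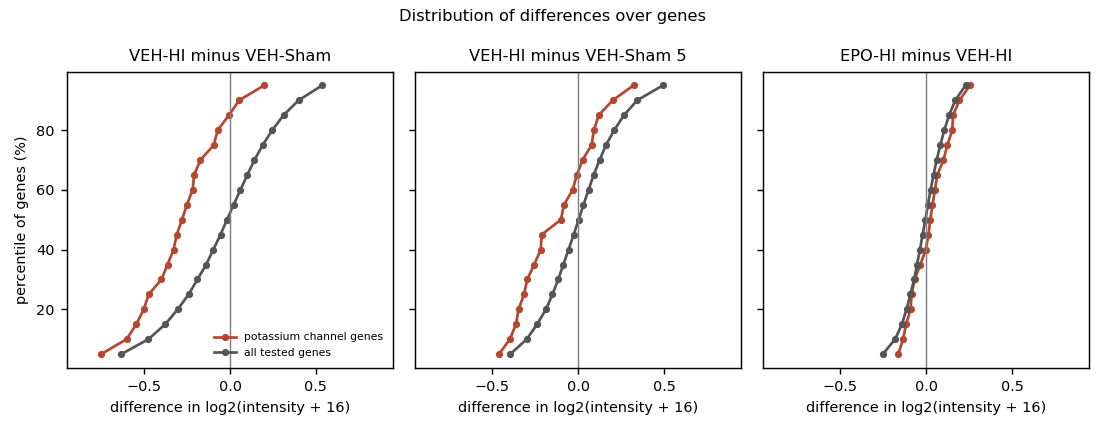
Percentiles (5 to 95, vertical axis, in percent of genes) of the difference in log2(intensity + 16) over the 61 potassium channel genes and over all 13047 genes, for VEH-HI minus VEH-Sham, VEH-HI minus VEH-Sham 5 and EPO-HI minus VEH-HI from left to right. The potassium channel curve lies left of the other in the first 2 panels, with medians of -0.28 against -0.02 and -0.10 against 0.00, and nearly on it in the last panel, with medians of 0.02 against -0.01.

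Array scaling moved the differences of the 61 genes and of all probe sets together. As deposited, the median of all probe sets was -0.06 in VEH-HI against VEH-Sham. Quantile normalization put it at 0.01 and equal array medians at 0.18. The median of the 61 genes was -0.28, -0.21 and -0.04 under these 3 scalings, with 52, 48 and 34 genes below 0. Relative to all probe sets, the median of the 61 genes was -0.22 as deposited and after quantile normalization. Equal array medians shift every difference by the same amount, so that setting cannot change the relative value. With array set as a block, the relative value was -0.11. Called genes were 16 lower and 2 higher as deposited (88.9% lower), 11 and 2 after quantile normalization (84.6% lower) and 3 and 4 with equal medians (42.9% lower). Over all 27022 probe sets the lower and higher calls were 3513 and 2661 as deposited (56.9% lower), 2664 and 3034 after quantile normalization (46.8% lower) and 1113 and 6614 with equal medians (14.4% lower). With equal medians Kcna7, Kcnab1 and Kcnt2 remained lower, Kcnk4 and Kcnu1 remained higher, and Kcnd3 and Kcnj10 were called higher as well.

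Spread among the 10 injured arrays was much like that of other genes, with a median SD of 0.23 over the 61 genes and 0.20 over all genes. The widest were Kcne4, Kcng2, Kcna7, Kcnq1ot1 and Kcnk16, of which all but Kcnq1ot1 were dim, with means of 5.53 to 6.14. Kcne4, a single-span regulator, read 5.37, 6.30, 4.67, 5.63 and 5.12 in EPO-HI and 6.93, 4.79, 6.08, 4.42 and 5.32 in VEH-HI, wider than its sham values of 5.87, 5.32, 6.03, 5.80 and 5.31. Kcng2 read 5.22, 5.56, 5.83, 4.51 and 5.80 in EPO-HI, 5.56, 6.04, 5.96, 5.81 and 4.51 in VEH-HI and 6.09, 6.30, 6.75, 5.28 and 4.54 in VEH-Sham 1 to 5. Neither gene separated the groups.

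The 2 transcripts that overlap channel genes and encode no channel did not pass. Kcnq1ot1, an imprinted long RNA antisense to Kcnq1, read 7.20, 6.70, 6.78, 6.82 and 7.02 in EPO-HI, 7.61, 6.31, 7.49, 6.85 and 6.29 in VEH-HI and 7.34, 7.20, 7.08, 7.86 and 7.12 in VEH-Sham 1 to 5. VEH-HI alone spanned most of the range of the series, and its difference was -0.41 (limma adjusted p = 0.181). Kcnmb4os2, on the strand opposite Kcnmb4, differed by -0.21 (limma adjusted p = 0.329). Leaving these 2 out, 16 of 59 genes were lower and 2 of 59 higher.

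Several bright genes had nearly equal group means. The brightest Kcnip gene, Kcnip1, averaged 8.39 ± 0.16 in EPO-HI, 8.38 ± 0.19 in VEH-HI and 8.40 ± 0.30 in VEH-Sham (SD, n = 5 each). Kcnk1, the brightest tandem-pore gene, averaged 8.78 ± 0.15 in EPO-HI, 8.73 ± 0.22 in VEH-HI and 8.67 ± 0.20 in VEH-Sham, and Kcne1l, now also called Kcne5, averaged 7.32 ± 0.26 in EPO-HI, 7.28 ± 0.11 in VEH-HI and 7.29 ± 0.16 in VEH-Sham. Among the brightest members of other families were Kcna2, at 7.25 ± 0.13 in EPO-HI, 7.22 ± 0.14 in VEH-HI and 7.61 ± 0.31 in VEH-Sham, and Kcnh3, at 7.42 ± 0.18 in EPO-HI, 7.37 ± 0.16 in VEH-HI and 7.83 ± 0.12 in VEH-Sham. Both are among the genes called lower.

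Genes that work with the channels were counted from lists, to be read beside 11.4% lower and 12.0% higher of all genes. Of 27 channel partners and related pore proteins 21 were measured, and 3 fell and none rose in VEH-HI against VEH-Sham (median -0.16, -0.15 from VEH-Sham 5). They were Abcc8, the sulfonylurea receptor that joins Kcnj11 in ATP-sensitive channels (-1.16, -0.39 from VEH-Sham 5), the pacemaker channel gene Hcn2 (-0.52, -0.11) and the scaffold gene Dlg1 (-0.32, -0.13). Kcnj11 itself did not pass (-0.23). Of 17 potassium pump and cotransporter genes 12 were measured, and 3 rose and none fell (median 0.22, -0.01 from VEH-Sham 5): the sodium pump subunit gene of astrocytes Atp1b2 (0.37, 0.23 from VEH-Sham 5), the pump regulator gene Fxyd6 (0.36, -0.17) and the kinase gene Wnk1 (0.30, 0.27).

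Sodium and calcium channels open and shape the action potentials that potassium channels end. Of 23 listed genes 20 were measured, 7 fell, none rose and 13 did not pass, beside 11.4% lower and 12.0% higher of all genes (median -0.19, -0.12 from VEH-Sham 5). Scn4b was at -0.99 (-0.54 from VEH-Sham 5), Cacna1a at -0.69 (-0.13), Cacna2d3 at -0.49 (-0.53) and Scn2a at -0.36 (-0.55), with Cacnb4 at -0.39 (-0.12), Scn1a at -0.37 (-0.29) and Cacna1b at -0.36 (0.04). No gene of these 3 lists was called in EPO-HI against VEH-HI.

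Marker lists for cell types were read in the same comparison, in which 11.4% of all genes were lower and 12.0% higher. Of 10 neuron markers 1 fell and none rose (median -0.14, -0.24 from VEH-Sham 5), and their summed intensity was 24692 to 27822 in EPO-HI, 19365 to 29356 in VEH-HI, 24993 to 27484 in VEH-Sham 1 to 4 and 29685 in VEH-Sham 5. Of 9 markers of striatal projection neurons 7 were measured and 4 fell (median -0.37, -0.20 from VEH-Sham 5), with sums of 2668 to 3369 in EPO-HI, 2319 to 2988 in VEH-HI, 3799 to 4421 in VEH-Sham 1 to 4 and 2859 in VEH-Sham 5. Of 7 reactive astrocyte markers 6 rose (median 1.36, 1.59 from VEH-Sham 5). The part of changing cell makeup in the channel differences was not tested.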

How the data were processed

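The authors deposited 1 linear intensity per probe set and array. From the values, the deposited intensities of each array had been scaled to a trimmed mean of 150.0 (2% off each end). The software that summarised the probes was not given in the sources used here. All 15 columns were matched to samples by name. After 64 control probe sets were left out, 45037 remained, of which 34945 had 1 symbol in the platform's annotation, 932 had several and 9160 were unlisted. Names were checked by gene number against GRCm38.p6 gene tables (34741 matched, 0 changed).

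Intensities were converted here to log2(intensity + 16), which understates changes of dim genes, and the brightest 60% (27022 probe sets, mean of at least 5.46) were tested. One model of 3 group means over all arrays was fitted in limma 3.58.1 under R 4.3.3 (lmFit, eBayes with trend), two-sided, with Benjamini-Hochberg adjustment over all tested probe sets and a threshold of 0.05. The code was tested on simulated data. Plots used matplotlib 3.10.9 (Python 3.11.15). Each group held 5 arrays, and that number limits the precision. Ranks of brightness between probe sets serve only to choose genes, since probes differ in yield.

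The members, marker lists and companion lists were chosen with earlier results of these data known, and counts over members are descriptions. By the naming rule, array values are given for the 8 largest rises and falls past the threshold in VEH-HI against VEH-Sham, the 5 smallest p in EPO-HI against VEH-HI, the 6 largest one-sided differences from VEH-Sham 5 and the 5 widest genes. Start regions came from RefSeq. Alternatives covered the pseudocount, filter, scaling, trend, array weights, probe set choice, array set and each array left out.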

Additional observations from a re-analysis of the deposited data

Results flagged for a closer look

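Within groups of 5 arrays, 22 potassium channel genes named with array values were searched for an array far from the other 4, which chance gives in about 1 in 20 groups. Of 66 groups, 4 held one. Kcnk4 stood at 6.01 in VEH-Sham 5, against 4.67 to 4.85 in VEH-Sham 1 to 4. Kcnab1 stood at 7.72 in VEH-HI 6, against 8.10 to 8.19 in the other VEH-HI arrays. Kcnk10 stood at 6.60 in VEH-HI 8 (others 7.01 to 7.15) and Kcnj10 at 8.57 in VEH-HI 7 (others 8.40 to 8.44).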

How the results depend on the processing

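No paired analysis was possible because replicate numbers run through the whole series and no 2 groups share one. EPO-HI against VEH-HI gave 0 calls among the 61 genes under every alternative run. In VEH-HI against VEH-Sham, the 16 lower and 2 higher genes became 10 lower with no filter on dim probe sets, 10 lower and 1 higher with 40% of probe sets tested, 3 lower and 4 higher with equal array medians, 8 lower and 1 higher among the 34 genes with a mean of at least 7, and 0 in both directions with array set as a block or with only the arrays around VEH-Sham 5. Leaving out 1 array gave 9 to 22 lower (9 without VEH-Sham 1 or 4, 10 without VEH-HI 6, 22 without VEH-Sham 5) and 1 to 2 higher (1 without VEH-Sham 1, 2 or 4 or VEH-HI 9). In EPO-HI against VEH-Sham, the 8 lower and 2 higher genes became 5 and 1 with 40% tested or a mean of at least 7, 2 and 5 with equal medians, 20 lower with array weights, 1 higher with a pseudocount of 64 or no filter, and 0 with the block or the arrays around VEH-Sham 5. Leaving out 1 array gave 4 to 18 lower and 1 to 2 higher. Kcnk4 reversed to -0.032, Kcnk13 to 0.21 and Kcna2 to 0.025 with the block and with only the arrays around VEH-Sham 5. The last 2 settings rest on 1 sham array, which is assumed to vary like the others. For the other changes, the cause was not tested.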

Other observations

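The 23 potassium channel genes under the brightness minimum were fitted once with no filter on dim probe sets. In VEH-HI against VEH-Sham, Kcnn4 (-1.41), Kcnq1 (-1.08), Kcnh5 (-0.76) and Kcnk15 (-0.73) were lower and Kcns3 (0.78) was higher. Their limma adjusted p were 0.0063, 0.0232, 0.0238, 0.0314 and 0.0201. Such differences rest on very low signals: Kcnn4 averaged 4.45 in VEH-HI and 6.24 in VEH-Sham 1 to 4, with 4.37 in VEH-Sham 5. The same fit called 10 of the 61 brighter genes lower and 2 higher, and no share over all genes is given for it. For the called dim genes, the differences from VEH-Sham 5 were 0.08 for Kcnn4, the other direction, -0.25 for Kcnq1, -0.46 for Kcnh5, -0.41 for Kcnk15 and 0.41 for Kcns3. Other probe sets of a gene did not always go the same way. For 30 of the 61 genes there were 44 other tested probe sets, of which 35 had the sign of the brightest. For the 18 called genes, 8 had 13 others, of which 9 had the same sign and 2 were called. Kcna6 stood at -0.09 by its brightest probe set and at -0.95 by another (limma adjusted p = 0.00894, -0.12 from VEH-Sham 5). Kcnip3 stood at 0.05 and 0.70 (limma adjusted p = 0.0306, -0.09 from VEH-Sham 5). Dimmer probe sets of Kcnv1 (-0.67), Kcns2 (-0.58) and Kcnip4 (-0.32) were also lower (limma adjusted p of 0.011, 0.0268 and 0.0447). From VEH-Sham 5 these stood at -0.21, -0.60 and -0.44. Another Kcnv1 probe set stood at 0.02 and another of Kcnip4 at -0.30, without passing.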
